A study of Mus musculus with 12 samples.

Results

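The 9 chemokine receptor genes Cx3cr1, Ccr1, Ccr2, Ccr6, Ccr7, Cxcr2, Cxcr3, Cxcr4 and Cxcr5 were described on 12 Affymetrix Mouse Gene 1.0 ST arrays of leukocytes that had been sorted by flow cytometry from mouse brain and blood. They were taken by symbol, as probe sets annotated to exactly 1 of these genes, and each had 1 probe set, so they make up 9 of the 19938 genes measured. All mice were of the C57BL/6 strain, the labels give an age of 7 weeks, and RNA was amplified in a 2-cycle protocol from 10 ng. Tumor-bearing mice carried intracranial GL261 gliomas, from a syngeneic mouse glioma line, for 2 weeks, and gave 8 arrays, against 4 from mice labelled normal.

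The 6 brain arrays were tumor macrophages (tumor MP), tumor microglia (tumor MG), normal MP, normal MG, and tumor Gr1+ and tumor Gr1- cells. MP were gated as CD11b+ CD45 high cells and MG as CD11b+ CD45 low cells, and Gr1 is a surface antigen of neutrophils and inflammatory monocytes. The 6 blood arrays were Gr1+ and Gr1- cells of tumor-bearing mice and blood macrophages labelled high and low, from tumor-bearing and from normal mice. What high and low refer to is not given in the sources used here. The growth protocol in the labels reads alike for all 12 arrays, including those labelled normal. Each condition had 1 array, so no difference between 2 arrays has a replicate error or a p-value.

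Chemokine receptors are G protein-coupled receptors on the leukocyte surface that read gradients of small secreted chemokines and steer cells out of the marrow, through the blood and into tissue. Leukocyte types carry different sets: Cx3cr1 is the receptor by which microglia are commonly marked, Ccr2 that of inflammatory monocytes, Cxcr2 that of neutrophils, and Ccr7 and Cxcr5 guide lymphocytes and dendritic cells within lymphoid organs. In bulk RNA of a sorted population, fewer cells of a type and less RNA per cell cannot be told apart.

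Values are log2 expression values as deposited, and the background of each array was set at the 95th percentile of its 1027 olfactory receptor genes, which are not expected in leukocytes. It ran from 8.93 to 10.09, and 11.2% to 39.1% of genes lay above it. Several arrays carried markers that their labels do not name. The array labelled blood Gr1- had 9 of 9 microglia markers above background, among them Tmem119 at 12.17 and P2ry12 at 11.03, and correlated most closely with tumor MP (r = 0.96 over all genes). Of the blood macrophage arrays, tumor high and normal low had neutrophil S100a8 at 13.78 and 12.78 and nonclassical monocyte Ace at 12.13 and 12.62, whereas tumor low and normal high had Ncr1 of NK cells at 12.51 and 11.12 and no neutrophil marker above background. All 4 held B cell markers, with Cd79a between 10.99 and 12.51. Tumor MP and normal MP, labelled as macrophages, each had 9 of 9 microglia markers above background. Normal MP also had 10 of 10 neutrophil markers and 6 of 6 border-associated macrophage markers above background, with Ngp at 13.97 and Lyve1 at 13.28. Normal blood macrophage high had the highest background and was the only array with Itgam (CD11b) below it.

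Of the 108 receptor values, 52 lay above background. Normal MP had 7 of the 9 receptors above background, where 36.3% of all genes were. Normal MG and normal blood macrophage high had 1 each, where 27.1% and 11.2% of genes were above. Tumor MP and tumor MG had 4 each, where 32.0% and 26.3% of genes were, and tumor Gr1+ and tumor Gr1- had 4 each, where 35.2% and 39.1% were. In blood, Gr1+ and the array labelled Gr1- had 5 each, where 32.3% and 37.7% were. Tumor high and low had 6 each, where 34.9% and 31.1% were, and normal low had 5, where 26.3% were. Cx3cr1 and Cxcr4 were above background on 11 arrays each, Ccr2 on 10, Ccr1 on 8, Ccr7 and Cxcr2 on 4, Cxcr3 on 3, Cxcr5 on 1 and Ccr6 on 0. The receptors differed in how far they varied. The median range of all genes over the arrays was 1.39, and the range was 7.54 for Cxcr2, 5.56 for Cxcr4 and 5.51 for Ccr1, against 1.46 for Cxcr3 and 1.29 for Ccr6.

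**Figure D1:**
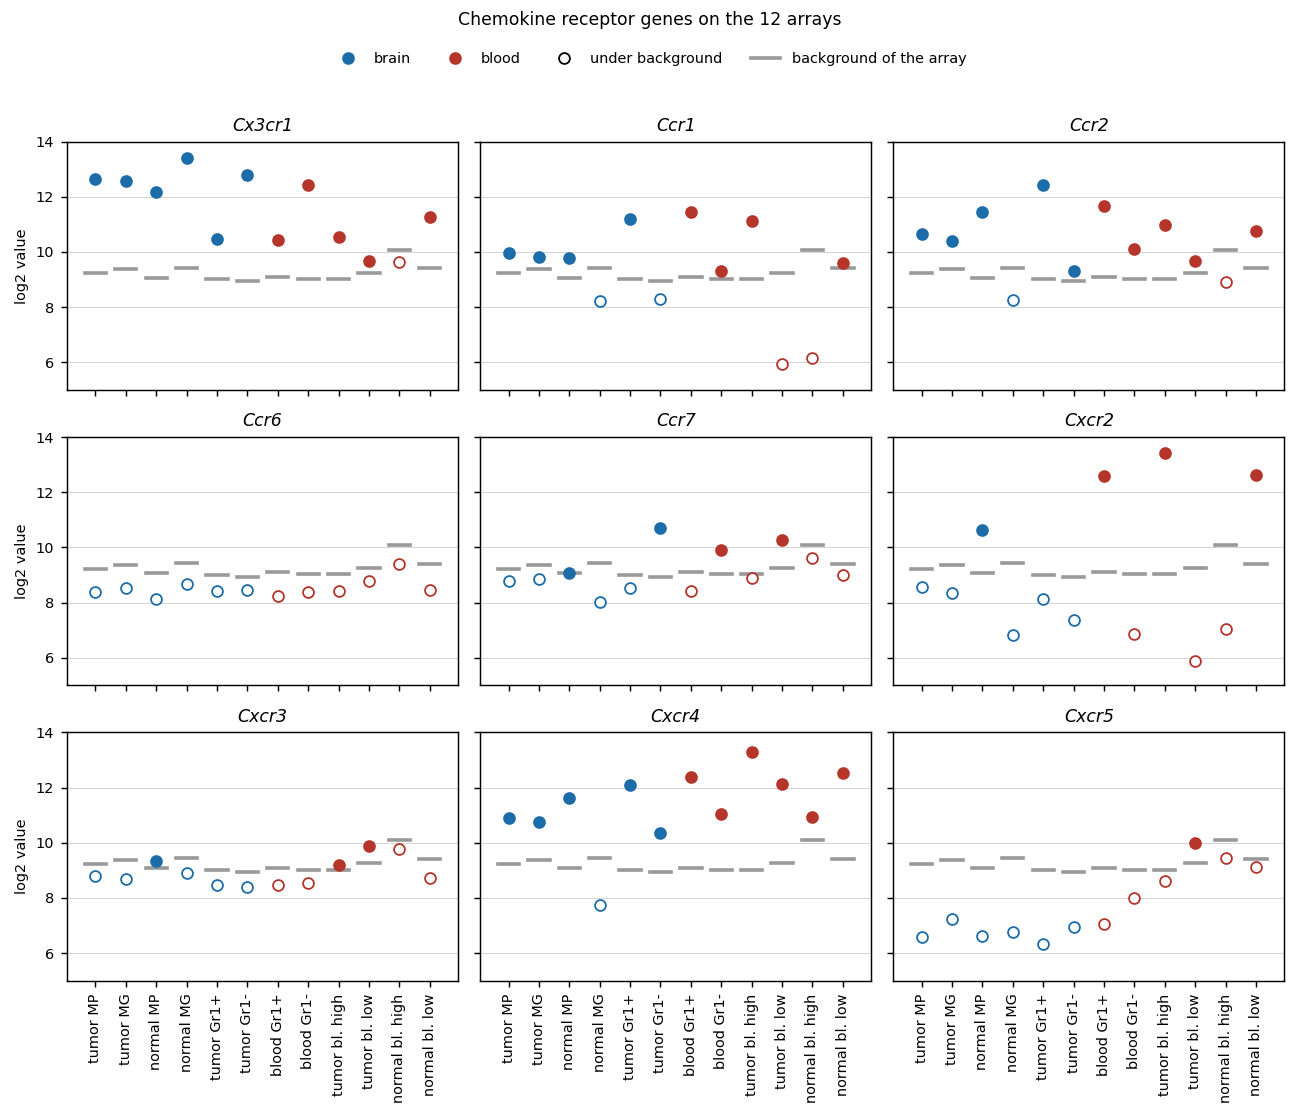
Log2 expression value (vertical axis) of the 9 receptors on each of the 12 arrays (horizontal axis; bl. stands for blood macrophage), with open circles under background and a grey bar at the background of each array. Cxcr2 stands at 10.65 to 13.43 on 4 arrays and under background on the other 8, Cx3cr1 and Cxcr4 are above background on 11 arrays each, and Ccr6 is below it on all 12.

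Cx3cr1 encodes the receptor of fractalkine, the product of Cx3cl1, and is carried by microglia and by patrolling monocytes. Its log2 value on the brain arrays was 12.66 on tumor MP, 12.59 on tumor MG, 12.19 on normal MP, 13.39 on normal MG, 10.45 on tumor Gr1+ and 12.79 on tumor Gr1-. On the blood arrays it was 10.44 on Gr1+, 12.44 on the array labelled Gr1-, 10.53 and 9.66 on tumor high and low, and 9.63 and 11.28 on normal high and low. The 5 brain arrays other than tumor Gr1+ were high and stood together with the array labelled blood Gr1-, and the NK-marked pair was low, with normal high under background. Ordered by level, no neighbouring pair of arrays was further apart than 95% of olfactory receptor genes between the same arrays.

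Ccr2 encodes the receptor of Ccl2 and Ccl12, by which inflammatory monocytes leave the marrow. It read 10.64 on tumor MP, 10.41 on tumor MG, 11.47 on normal MP, 8.28 on normal MG, 12.42 on tumor Gr1+ and 9.32 on tumor Gr1-. In blood it read 11.66 on Gr1+, 10.12 on the array labelled Gr1-, 10.96 and 9.69 on tumor high and low, and 8.93 and 10.77 on normal high and low. Normal MG was the lowest array and under background, normal blood macrophage high was also under it, and both Gr1+ arrays were the highest. No neighbouring levels of Ccr2 exceeded the spread of the olfactory receptor genes either.

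On the brain arrays the order of Ccr2 ran against that of Cx3cr1. Normal MG was highest in Cx3cr1 and lowest in Ccr2, and tumor Gr1+ was lowest in Cx3cr1 and highest in Ccr2. Pearson's r was -0.89 over the 6 brain arrays, 0.31 over the 6 blood arrays and -0.27 over all 12, where the NK-marked pair was low in both. Without that pair r was -0.81. These are descriptions over arrays that share sorting and, in part, cell types.

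**Figure D2:**
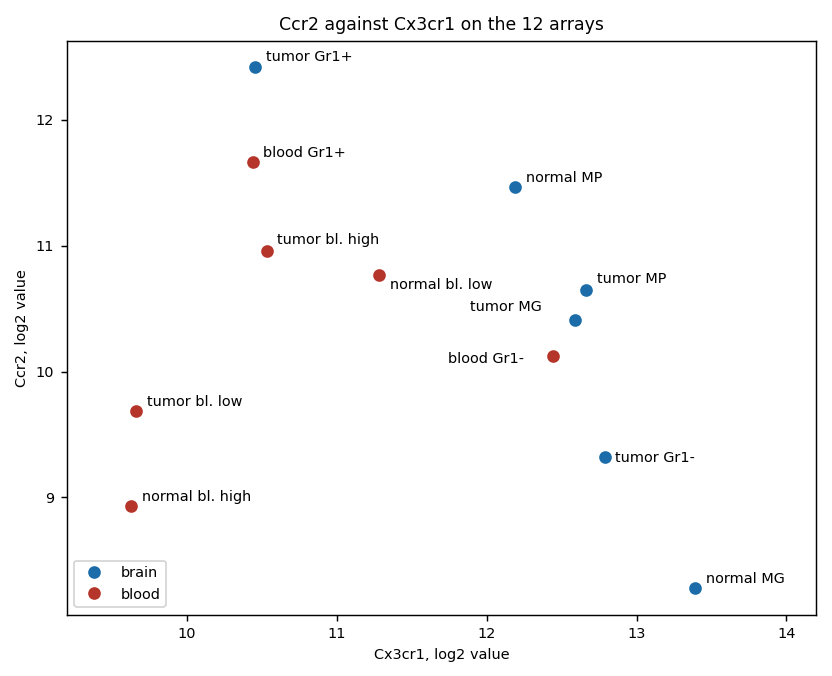
Ccr2 (vertical axis) against Cx3cr1 (horizontal axis), log2 values, 1 point per array, with brain arrays in blue and blood arrays in red. The brain arrays run from tumor Gr1+ at 10.45 and 12.42 down to normal MG at 13.39 and 8.28, and tumor low and normal high of blood lie apart at the lower left.

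Ccr1 encodes a receptor of Ccl3, Ccl5, Ccl6 and Ccl9 on monocytes and neutrophils. It read 9.95 on tumor MP, 9.82 on tumor MG, 9.78 on normal MP, 8.24 on normal MG, 11.20 on tumor Gr1+ and 8.30 on tumor Gr1-. In blood it read 11.46 on Gr1+, 9.32 on the array labelled Gr1-, 11.11 and 5.95 on tumor high and low, and 6.15 and 9.61 on normal high and low. The 3 arrays at 11.11 and above, namely both Gr1+ arrays and tumor blood macrophage high, stood above the next, tumor MP, by 1.16, where 95% of olfactory receptor genes differed by less than 1.15. Ccr1 had 2 more gaps beyond that spread, from the array labelled blood Gr1- to tumor Gr1- and, under background, from normal MG to normal blood macrophage high. Normal MG, tumor Gr1- and the NK-marked pair were under background. Ccr1 and Ccr2 had r = 0.94 over the brain arrays, 0.92 over the blood arrays and 0.79 over all 12.

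Cxcr2 encodes the neutrophil receptor of Cxcl1, Cxcl2, Cxcl3, Cxcl5 and Ppbp. It read 8.56 on tumor MP, 8.34 on tumor MG, 10.65 on normal MP, 6.81 on normal MG, 8.12 on tumor Gr1+ and 7.35 on tumor Gr1-. In blood it read 12.58 on Gr1+, 6.85 on the array labelled Gr1-, 13.43 and 5.89 on tumor high and low, and 7.05 and 12.62 on normal high and low. Above background its order held 2 wide gaps. Blood Gr1+ stood 1.93 above normal MP, and normal MP 2.09 above tumor MP, which was already under background. The 4 arrays with Cxcr2 above background were the 4 with 7 or more of the 10 neutrophil markers above it, and the other 8 had 0 to 2. Tumor Gr1+ cells had 2, with a summed log2 marker signal of 12.01, against 7 and 14.94 in blood Gr1+ cells. Over the 12 arrays Cxcr2 had r = 0.92 with the median of the neutrophil markers.

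Cxcr4 encodes the receptor of Cxcl12, which holds leukocytes in the marrow and is carried by most leukocyte types. It read 10.89 on tumor MP, 10.77 on tumor MG, 11.63 on normal MP, 7.73 on normal MG, 12.09 on tumor Gr1+ and 10.34 on tumor Gr1-. In blood it read 12.37 on Gr1+, 11.06 on the array labelled Gr1-, 13.29 and 12.14 on tumor high and low, and 10.95 and 12.52 on normal high and low. Normal MG alone lacked a signal above background and stood 2.61 under the next array, tumor Gr1-, where 95% of olfactory receptor genes differed by less than 1.44. The remaining 11 arrays formed a gradient in which no neighbours differed beyond that spread. Unlike Ccr1 and Cxcr2, Cxcr4 was above background on both arrays with NK markers.

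Ccr7 encodes the receptor of Ccl19 and Ccl21, which draws mature dendritic cells and naive T cells to lymph nodes. It was above background on tumor Gr1- at 10.70, tumor blood macrophage low at 10.28, the array labelled blood Gr1- at 9.90 and normal MP at 9.08. The last of these only just passed the background of that array, 9.07. On the other 8 arrays Ccr7 read 8.03 to 9.61, all under background. Tumor Gr1- also had 6 of 8 dendritic cell markers above background, the most of any array, with Flt3 at 9.69 and Cd209a at 9.17, and their part in the Ccr7 level was not tested. Tumor low had 1 of these 8 markers, 10 of 10 NK markers and 8 of 8 B cell markers above background. The array labelled blood Gr1- had 6 of the 8 B cell markers. With Ccr7 under background, tumor high and normal low had 7 of them and normal high 6. Tumor Gr1- had 5 of the 10 NK markers, and no other brain array had more than 1. Over the 12 arrays Ccr7 had r = 0.67 with the median of the NK markers, 0.44 with that of the dendritic cell markers and 0.37 with that of the B cell markers.

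Cxcr3 encodes the receptor of Cxcl9, Cxcl10 and Cxcl11 on activated T and NK cells. It was above background on tumor blood macrophage low at 9.87, normal MP at 9.32 and tumor blood macrophage high at 9.21, and read 8.41 to 9.79 elsewhere. All 3 lie close to background, and at the 99th percentile of the olfactory receptor genes none of them passed. T cell markers gave no contrast between the arrays either: their median ran from 8.59 to 10.00, with 2 to 5 of 9 above background on every array.

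Cxcr5 encodes the receptor of Cxcl13 that leads B cells into follicles. It passed background on tumor blood macrophage low alone, at 9.98, against 8.61 on tumor high, 9.43 on normal high and 9.11 on normal low. It read 7.04 on blood Gr1+ and 7.99 on the array labelled blood Gr1-. The 6 brain arrays read 6.32 to 7.24, far under background. The level followed the B cell markers, with r = 0.98 between Cxcr5 and the median of 8 of them over the 12 arrays. Ccr6, the receptor of Ccl20 on B cells and some T cells, read 8.13 to 9.41, and its highest value fell on the array with the highest background.

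**Figure D3:**
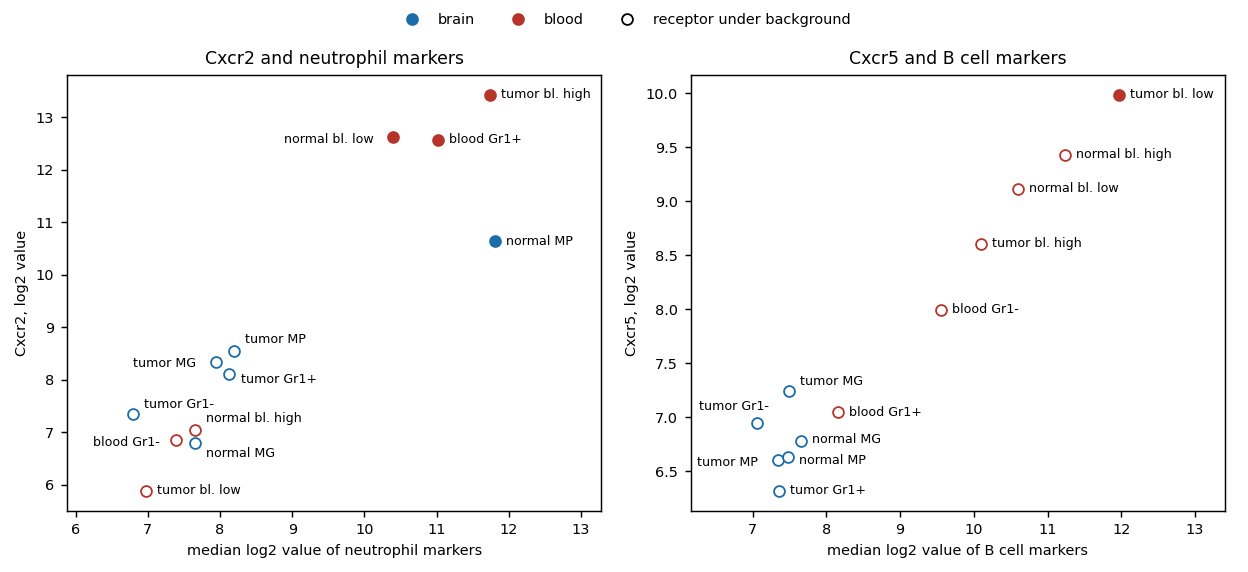
Log2 value of Cxcr2 against the median of 10 neutrophil markers (left) and of Cxcr5 against the median of 8 B cell markers (right), 1 point per array, brain in blue, blood in red, open where the receptor is under background. The 4 arrays with Cxcr2 above background have marker medians of 10.39 or more, and Cxcr5 increases with the B cell markers although only tumor blood macrophage low passes background.

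The 250 bases before the RefSeq start of Cx3cr1, Ccr1, Cxcr2 and Cxcr4 (build GRCm38.p6) are shown for the receptors that were above background on 4 or more arrays and whose window lies outside the annotated gene. Capitals mark matches to 6 motifs on either strand: the PU.1 core GAGGAA, C/EBP TTGCNNAA, RUNX TGTGGT, STAT TTCNNNGAA, the TATA box TATAAA and the GC box GGGCGG.
Cx3cr1, chr9:120068297-120068546, minus strand: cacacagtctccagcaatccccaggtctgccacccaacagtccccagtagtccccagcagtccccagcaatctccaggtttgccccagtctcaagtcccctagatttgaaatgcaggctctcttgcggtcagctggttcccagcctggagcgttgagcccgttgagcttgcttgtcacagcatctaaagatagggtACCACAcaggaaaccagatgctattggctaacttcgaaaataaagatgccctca
Ccr1, chr9:123968693-123968942, minus strand: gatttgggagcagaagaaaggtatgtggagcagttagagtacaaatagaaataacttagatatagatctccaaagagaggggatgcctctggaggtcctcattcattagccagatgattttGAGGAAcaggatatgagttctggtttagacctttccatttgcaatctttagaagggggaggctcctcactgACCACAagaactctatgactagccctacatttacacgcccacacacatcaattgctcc
Cxcr2, chr1:74153744-74153993, plus strand: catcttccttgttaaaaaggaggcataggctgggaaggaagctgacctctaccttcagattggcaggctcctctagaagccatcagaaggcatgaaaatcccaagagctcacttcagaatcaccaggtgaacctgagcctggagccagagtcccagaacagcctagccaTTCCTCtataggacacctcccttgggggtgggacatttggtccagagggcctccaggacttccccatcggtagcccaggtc
Cxcr4, chr1:128592300-128592549, minus strand: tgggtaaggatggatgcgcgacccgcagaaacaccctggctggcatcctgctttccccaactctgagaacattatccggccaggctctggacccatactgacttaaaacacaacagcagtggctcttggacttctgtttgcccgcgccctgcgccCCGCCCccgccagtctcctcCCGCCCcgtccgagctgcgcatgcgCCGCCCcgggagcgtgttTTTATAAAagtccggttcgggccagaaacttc
Cx3cr1 held 1 RUNX match, Ccr1 a PU.1 core and a RUNX match, and Cxcr2 a PU.1 core. Cxcr4 held 3 GC boxes and overlapping TATA box matches on both strands, at positions -32 to -25 from the start. Among 32851 RefSeq promoter windows of the same length, 23.3% held the PU.1 core, 9.56% C/EBP, 14.05% RUNX, 7.02% STAT, 12.4% the TATA box and 32.7% the GC box. Cxcr4 had 19 CpG dinucleotides and a GC content of 61.2%, Cx3cr1 had 4, and Ccr1 and Cxcr2 had 1 each, against a median of 6 CpG and 52.4% GC over all windows. The matches are descriptions of the letters, and the arrays measured no binding. Of the 9 receptors 7 were matched in the promoter table used.

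Tumor MG against normal MG compares microglia of glioma-bearing and normal brain. On tumor MG, 4 of 9 receptors were higher by 2-fold or more, namely Ccr1, Ccr2, Cxcr2 and Cxcr4, and 0 were lower. Of all genes, 2.44% were higher and 3.61% lower by this measure. Among genes above background on 1 or both arrays, 3 of 4 receptors were higher, against 4.32% of such genes. The 3 passed this filter only through tumor MG, where they were high, so the share is a description. Cxcr4 read 10.77 on tumor MG and 7.73 on normal MG, a log2 difference of 3.04. Ccr2 differed by 2.14 and Ccr1 by 1.58. These 3 were under background on normal MG, and with their values raised to that background the differences were 1.33, 0.98 and 0.39. Cxcr2, higher by 1.53, was under background on both arrays. Cx3cr1 was lower on tumor MG by 0.80 on the log2 scale, within the 0.96 that 95% of olfactory receptor genes stayed under. Microglia markers were lower as well, with a median of 11.17 on tumor MG and 12.63 on normal MG, and their part in the Cx3cr1 difference was not tested. The median log2 difference of the 9 receptors was 0.84, against -0.09 for all genes. Monocyte markers moved the same way: 4 of 8 were above background on tumor MG, with a summed log2 signal of 13.33, against 0 and 10.44 on normal MG, and their part in the receptor differences was not tested.

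Tumor MP against normal MP gave 0 receptors at least 2-fold higher and 1 lower, where 1.65% and 3.58% of genes were. Cxcr2 read 8.56 on tumor MP and 10.65 on normal MP, a difference of -2.09, or -1.42 with the tumor MP value raised to background. Ccr2 differed by -0.82, Cxcr4 by -0.73 and Cx3cr1 by 0.47. Neutrophil markers were lower on tumor MP too, with 1 of 10 above background and a summed log2 signal of 11.95. On normal MP these were 10 and 15.86, and their part in the Cxcr2 difference was not tested. Monocyte markers had 4 of 8 above background and a median of 9.30 on tumor MP, against 7 and 10.21 on normal MP. Their summed log2 signal was 13.48 on tumor MP and 13.62 on normal MP. The median of the microglia markers was 11.35 on tumor MP and 10.54 on normal MP. Border-associated macrophage markers above background were 2 of 6 on tumor MP and 6 on normal MP. The part of these lists in the other differences was not tested.

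Tumor MP against tumor MG gave 0 receptors 2-fold higher or lower, where 0.186% and 0.155% of genes were. Each of the 9 lay within the 0.65 that 95% of olfactory receptor genes stayed under. The microglia markers were alike too, with 9 of 9 above background and a median of 11.35 on tumor MP, against 8 and 11.17 on tumor MG. Monocyte markers above background were 4 of 8 on each, and r over all genes was 0.97. Whether the 2 sorts hold different cells was not tested. In normal brain 5 receptors were at least 2-fold higher on MP than on MG and 1 was lower, where 4.35% and 3.11% of genes were. Of the 7 above background on 1 or both arrays these are the same 5 and 1, against 8.48% and 3.64% of such genes. The 5 passed this filter only through normal MP, where they were high, so the share is a description. Cxcr4 differed by 3.90, Cxcr2 by 3.84, Ccr2 by 3.19, Ccr1 by 1.54 and Ccr7 by 1.05, and Cx3cr1 by -1.20. With values raised to background the differences of Cxcr4, Ccr2 and Cxcr2 were 2.19, 2.03 and 1.21, that of Ccr1 was 0.34 and that of Ccr7 was -0.35. This comparison and tumor MG against normal MG share the normal MG array and its low values. Monocyte markers were higher as well, with 7 of 8 above background and a summed log2 signal of 13.62 on normal MP, against 0 and 10.44 on normal MG, and over the 12 arrays their median had r = 0.89 with Ccr2 and 0.81 with Ccr1. The median of the microglia markers was 10.54 on normal MP and 12.63 on normal MG. Normal MP also held the neutrophil and border-associated macrophage markers given above, and the part of these markers was not tested.

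**Figure D4:**
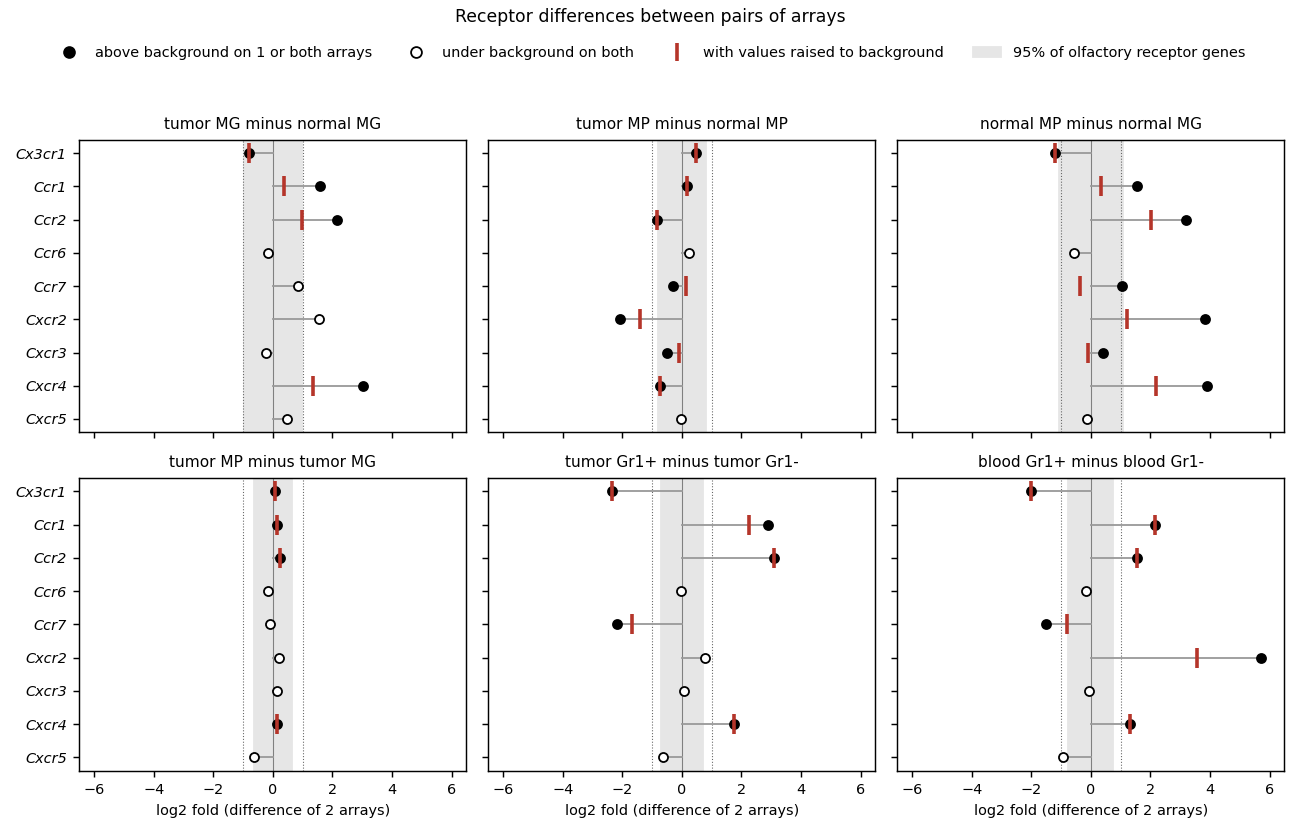
Log2 difference of each receptor (horizontal axis) between 2 arrays in 6 comparisons, first-named minus second-named array, with open circles where both values are under background, red bars for the difference with values raised to background, and grey bands for 95% of olfactory receptor genes. Cxcr4 and Ccr2 leave the band in tumor MG against normal MG and in normal MP against normal MG, and no receptor leaves it in tumor MP against tumor MG.

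Gr1+ and Gr1- cells differed in receptors in both directions, with more Ccr1, Ccr2 and Cxcr4 and less Cx3cr1 and Ccr7 on Gr1+ cells of either tissue. In the tumor, Ccr2 was higher on Gr1+ by 3.10, Ccr1 by 2.90 and Cxcr4 by 1.75, while Cx3cr1 and Ccr7 differed by -2.33 and -2.18. That is 3 of 9 receptors at least 2-fold higher and 2 lower, where 2.88% and 5.12% of genes were. In blood, Cxcr2 was higher on Gr1+ by 5.72, Ccr1 by 2.14, Ccr2 by 1.54 and Cxcr4 by 1.32, and Cx3cr1 and Ccr7 differed by -2.004 and -1.49, so 4 were higher and 2 lower, where 3.2% and 4.31% were. With values raised to background the Cxcr2 difference in blood was 3.55 and that of Ccr7 -0.81, no longer 2-fold. Monocyte markers were higher on Gr1+ cells, with 7 of 8 above background and a summed log2 signal of 14.99 on tumor Gr1+, against 3 and 12.15 on tumor Gr1-, and 7 and 14.57 on blood Gr1+, against 4 and 13.19 on the array labelled blood Gr1-. Their part in the Ccr1, Ccr2 and Cxcr4 differences was not tested. Ccr2, Cxcr4 and Cx3cr1 were above background on all 4 arrays. Microglia markers were lower on Gr1+ in both tissues, with 3 of 9 above background on each Gr1+ array, against 9 of 9 on each Gr1- array, the one labelled blood included, and their part in the Cx3cr1 difference was not tested. Over the 12 arrays Cx3cr1 had r = 0.94 with the median of these markers.

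Tumor Gr1+ against blood Gr1+ compares cells sorted on the same antigen from brain and blood, by their labels, which need not be the same mix of cell types. Each had 3 of 9 microglia markers above background. Blood Gr1+ correlated more closely with tumor Gr1+ (r = 0.94 over all genes) than with any other array, those of blood included. Cxcr2 alone was 2-fold apart, at 8.12 on tumor Gr1+ and 12.58 on blood Gr1+, a difference of -4.46, or -3.56 with the tumor value raised to background. So 0 receptors were higher and 1 lower, where 1.02% and 2.97% of genes were. Neutrophil markers were lower on tumor Gr1+ too, with 2 of 10 above background and a summed log2 signal of 12.01. On blood Gr1+ these were 7 and 14.94, and their part in the Cxcr2 difference was not tested. Ccr2 read 12.42 on tumor Gr1+ and 11.66 on blood Gr1+, a difference of 0.76. The other receptors above background differed by 0.01 for Cx3cr1, -0.26 for Ccr1 and -0.28 for Cxcr4. Tumor Gr1- against the array labelled blood Gr1- gave 0 higher and 2 lower, where 0.547% and 2.44% were. These were Ccr1 by -1.02 and Cxcr5 by -1.05, and Cxcr5 was under background on both. With the arrays median-centred, quantile-normalized or cyclic loess-normalized, 0 receptors were 2-fold apart here. B cell markers differed the same way, with 1 of 8 above background on tumor Gr1- and 6 on the array labelled blood Gr1-, and their part was not tested.

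The blood macrophage arrays labelled high and low differed in receptors in opposite directions in tumor-bearing and normal mice. In tumor-bearing mice, high against low gave Ccr1 at 5.17, Cxcr2 at 7.54, Ccr2 at 1.27 and Cxcr4 at 1.14 higher, and Ccr7 and Cxcr5 at -1.38 each. That is 4 higher and 2 lower, where 6.72% and 5.17% of genes were. Raised to background, Ccr1 differed by 1.86, Cxcr2 by 4.18 and Cxcr5 by -0.97. In normal mice the same contrast gave Cxcr2 at -5.57, Ccr1 at -3.46, Ccr2 at -1.84, Cx3cr1 at -1.65 and Cxcr4 at -1.57, with Cxcr3 higher by 1.06 and under background on both. That is 1 higher and 5 lower, where 4.37% and 11.9% were, and the median log2 difference of all genes was 0.39. With values raised to background the differences in normal mice were 0.48 for Ccr1, -0.68 for Ccr2, -1.19 for Cx3cr1 and -2.53 for Cxcr2, so that only Cx3cr1, Cxcr2 and Cxcr4 stayed 2-fold lower.

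Tumor against normal blood macrophages differed by as much, with a median log2 difference over all genes of -0.72 for high and -0.07 for low. For high, 4 receptors were higher and 1 lower, where 17.7% and 32.9% of genes were (42.6% and 13.2% of genes above background on 1 or both arrays), with Cxcr2 at 6.38, Ccr1 at 4.97, Cxcr4 at 2.34 and Ccr2 at 2.03, and Ccr6 at -1.01 and under background on both. Raised to background, Cxcr2 differed by 3.34, Ccr1 by 1.02 and Ccr2 by 0.87. For low, 2 were higher and 4 lower, where 3.29% and 6.06% were, with Ccr7 at 1.28 and Cxcr3 at 1.15, and Cxcr2 at -6.73, Ccr1 at -3.66, Cx3cr1 at -1.62 and Ccr2 at -1.08. Raised to background, Cxcr2 differed by -3.37, Ccr1 by -0.36, Ccr7 by 0.86 and Cxcr3 by 0.46. Paired by their markers instead, tumor high and normal low correlated at r = 0.91 over all genes, against 0.52 for tumor high with normal high, whereas tumor low correlated less with normal high (0.73) than with normal low (0.83). Tumor high against normal low, the pair with neutrophil and monocyte markers, gave 1 receptor higher and 0 lower, where 1.79% and 5.79% were, namely Ccr1 at 11.11 on tumor high and 9.61 on normal low. Tumor low against normal high, the NK-marked pair, gave Cxcr4 higher by 1.20 and Cxcr2, under background on both, by -1.16. Of all genes, 13.5% were higher and 13.2% lower there. Both differences lay within the 1.61 that 95% of olfactory receptor genes stayed under. Of olfactory receptor genes, 36.5% were 2-fold apart in this pair, and 58.2% between tumor high and normal high.

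Brain and blood were compared over all 6 arrays of each, which are different sorted populations, so that the SD is a spread between populations. Whether arrays share mice is not given in the sources used here, and the tests treat them as independent. By limma over 19938 genes, 0 of the 9 receptors passed an adjusted p of 0.05, where 0.0351% of genes did, and 3 passed an unadjusted 0.05, where 10.4% did. Cx3cr1 averaged 12.35 ± 1.01 on brain arrays and 10.66 ± 1.07 on blood arrays (SD, n = 6 each), a difference of 1.68 with an SE of 0.50 and a limma adjusted p of 0.224. Cxcr5 averaged 6.75 ± 0.32 on brain arrays and 8.70 ± 1.06 on blood arrays (SD, n = 6 each), a difference of -1.94 with an SE of 0.39 and a limma adjusted p of 0.163, and was under background on 11 of the 12 arrays. For Cxcr4 the means were 10.57 ± 1.53 on brain arrays and 12.05 ± 0.90 on blood arrays (SD, n = 6 each), a difference of -1.48 with an SE of 0.60 and a limma adjusted p of 0.375. Exact two-sided permutation tests over the arrays gave 0.0238 for Cx3cr1, 0.00433 for Cxcr5 and 0.0476 for Cxcr4, among 9 receptors tested. For each of the 9 receptors the brain and blood ranges overlapped, and the share of all genes with overlapping ranges was not computed.

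Leaving out the array labelled blood Gr1- changed these calls. This array was singled out for its values, and it had the highest Cx3cr1 level in blood, so the calls without it are descriptions. Without it, 2 receptors passed by limma, Cx3cr1 with a difference of 2.04 and an adjusted p of 0.0267 and Cxcr5 with -2.08 and 0.0161, where 2.92% of genes passed. Without both it and normal blood macrophage high, Cxcr5 passed by limma with an adjusted p of 0.0461 and Cx3cr1 had 0.0694. Of all genes, 2.40% passed there. Blood Gr1+, with 3 of 9 microglia markers above background, was kept in both fits.

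Tumor and normal mice were also compared over the 4 populations measured in both, MG, MP and blood macrophages high and low, with the population as a block, a test added after seeing the data. By limma 0 of 9 receptors and 0 of 19938 genes passed an adjusted p of 0.05, and 1 receptor passed an unadjusted 0.05, where 4.07% of genes did. That was Cxcr4, with 11.77 ± 1.19 on tumor arrays and 10.70 ± 2.09 on normal arrays (SD, n = 4 each), a difference of 1.07 with an SE of 0.48 and a limma adjusted p of 0.964. It was higher in tumor-bearing mice in 2 of the 4 populations, MG and blood macrophages high. With blood macrophages paired crosswise, a pairing chosen from the markers of these arrays, Cxcr4 passed with a limma adjusted p of 0.0356. In that setting 1.70% of genes passed. Cxcr4 was higher in 3 of the 4 pairs, with differences of 3.04, -0.73, 0.77 and 1.20. The SE was 0.31 for each of the 9 receptors, a value shared between genes. So this p does not measure the spread of Cxcr4 between pairs. Without blood macrophages low, Ccr1 passed with a difference of 2.24 and a limma adjusted p of 0.00221, and Cxcr2 with 1.94 and 0.0170. Of all genes, 0.742% passed there. The Ccr1 differences were 1.58 for MG, 0.18 for MP and 4.97 for blood macrophages high. Those of Cxcr2 were 1.53, -2.09 and 6.38. These p-values do not measure that spread, since limma also draws its variance from other genes. Both receptors were under background on normal MG and normal blood macrophage high, and Cxcr2 also on tumor MG and tumor MP.

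For each receptor above background on 2 or more arrays, the genes closest in pattern over the 12 arrays were taken from 9043 others. Cxcr4 had the closest, Iqgap1 with r = 0.99, then Itgal, a leukocyte integrin subunit, and S100a6, with 0.98 each. Ccr1 was followed by Ninj1, Slc16a3 and Litaf (0.98, 0.97 and 0.96), Cx3cr1 by Man1c1, Abhd12 and Pld1 (all 0.97), and Cxcr2 by Pilrb2, Mcemp1 and Dhrs9 (all 0.97). Ccr2 had Tlr8, an endosomal RNA sensor, Capg and Atrnl1 at 0.94. The low-lying receptors had looser partners, with Eef1b2, Topbp1 and Vars at 0.87 to 0.86 for Ccr7 and Zer1, S100a13 and Spry2 at 0.89 for Cxcr3.

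The ligands were measured in the same arrays for 20 of 23 listed genes. On tumor MG 9 of 20 were at least 2-fold higher than on normal MG and 0 lower, and 6 of the 9 were above background on tumor MG. The median log2 difference was 0.58, against -0.09 for all genes. Cxcl9, induced by interferon-gamma, read 11.88 on tumor MG and 7.69 on normal MG. Cxcl13 read 11.41 on tumor MG and 7.26 on normal MG, and Ccl5 read 10.51 on tumor MG and 6.24 on normal MG. Ccl2, the main attractant of inflammatory monocytes, read 10.24 on tumor MG and 6.78 on normal MG. All 4 were under background on normal MG. With values raised to it the log2 differences were 2.44 for Cxcl9, 1.98 for Cxcl13, 1.07 for Ccl5 and 0.80 for Ccl2, the last no longer 2-fold. Of all genes, 2.44% were higher and 3.61% lower. Tumor MP against normal MP gave 7 higher and 1 lower, where 1.65% and 3.58% of all genes were, with log2 differences of 3.95 for Cxcl13, 3.52 for Cxcl9, 3.001 for Cxcl10 and 2.06 for Ccl2. These 4 were under background on normal MP, and with values raised to it the differences were 2.33, 3.05, 2.69 and 1.19. Tumor MP against tumor MG gave 0 ligands in either direction. On tumor MP and tumor MG, then, the Cxcr3 ligands Cxcl9 and Cxcl10 and the Cxcr5 ligand Cxcl13 were above background where these receptors were not. The Cxcr3 ligand Cxcl11 was under background on both, at 8.84 on tumor MP and 8.94 on tumor MG.

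Gr1+ and Gr1- cells also differed in ligands, by 7 higher and 3 lower of 20 in the tumor, where 2.88% and 5.12% of all genes were, and 4 higher and 2 lower in blood, where 3.2% and 4.31% were. Of the 7, 6 were above background on 1 or both arrays. Cxcl13 read 6.46 on tumor Gr1+ and 10.11 on tumor Gr1-, and 6.90 on blood Gr1+ and 11.67 on the array labelled blood Gr1-. Ccl3 read 10.19 on tumor Gr1+ and 12.60 on tumor Gr1-. Cxcl2, a ligand of Cxcr2, read 10.91 on blood Gr1+ and 6.90 on the array labelled blood Gr1-. It was above background on 2 arrays, blood Gr1+ and tumor blood macrophage high, both with Cxcr2 above 12, and read 7.04 on normal blood macrophage low, where Cxcr2 read 12.62. Cxcl9 and Cxcl10, at 12.18 and 12.52 on blood Gr1+, were above background there and on the array labelled blood Gr1-, and on none of the 4 blood macrophage arrays. Cx3cl1 was above background on 0 arrays, and Cxcl12 read 8.85 to 9.85 with 4 arrays just above.

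**Figure D5:**
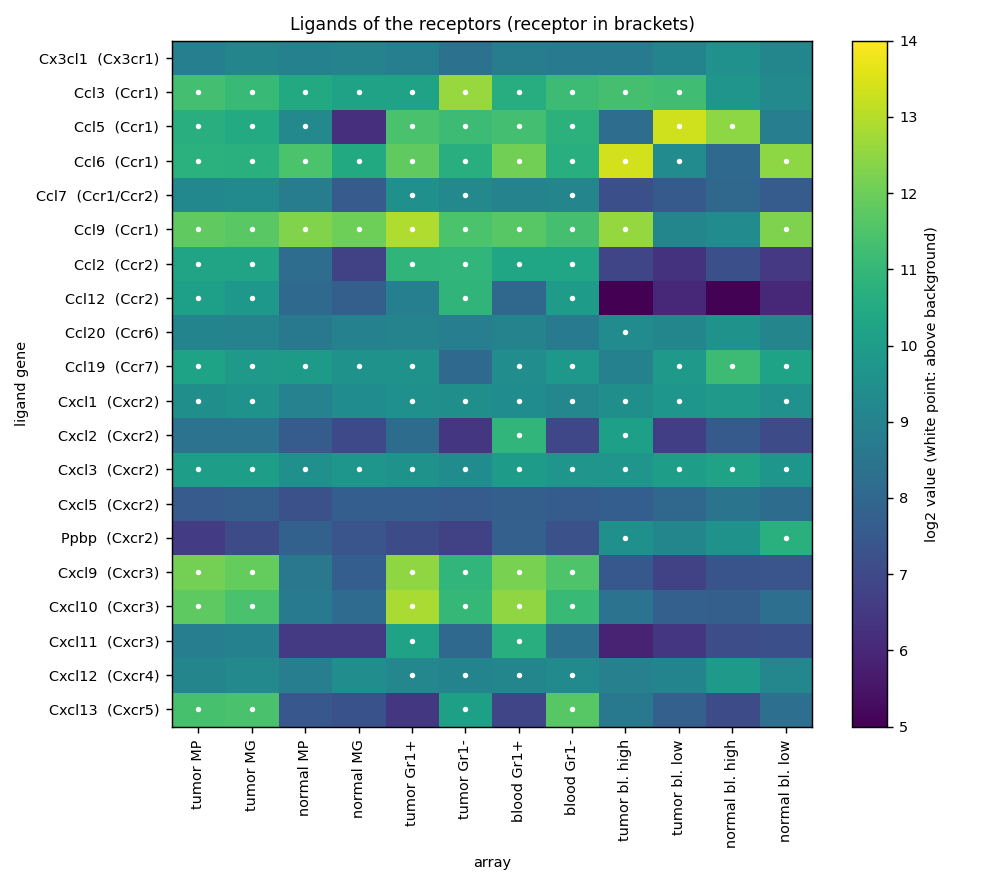
Log2 values (colour) of the 20 ligand genes measured (rows, receptor in brackets) on the 12 arrays (columns), with a white point where the value is above background. Cxcl9, Cxcl10 and Ccl2 are above background on tumor MP, tumor MG and the 4 Gr1 arrays, 6 arrays in all, and below it on normal MP, normal MG and the blood macrophage arrays.

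The remaining chemokine receptors gave little contrast. Of 9 others measured, 6 were under background on all arrays, where 48.0% of all genes were. Ccr3, the eotaxin receptor of eosinophils, was above background on tumor blood macrophage high alone, at 10.68, against 7.08 to 8.23 elsewhere. Cxcr1 read 8.93 to 10.16 and was above background on 10 arrays, by most on tumor blood macrophage high, where it read 10.08 over a background of 9.02. Cxcr6 read 8.84 to 9.50 and was above on 5. Of 5 atypical receptors, Ccrl2 varied most, from 7.72 to 10.44, with its highest value on blood Gr1+. Among 15 genes of the signalling behind the receptors, 5 were at least 2-fold higher on normal MP than on normal MG and 0 lower, where 4.35% and 3.11% of all genes were. On normal blood macrophage high 12 were at least 2-fold lower than on normal low, where 11.9% of all genes were, and 31.8% of those above background on 1 or both arrays. Gnai2, Gnai3, Dock2, Rac2 and Ptk2b were above background on all 12 arrays. These 5 genes and Cxcr1, Cxcr6 and Ccrl2 were singled out after their values were seen.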

How the data were processed

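Sorted brain and blood leukocytes of tumor-bearing and normal mice were measured on 12 arrays, 1 per condition, with groups taken from the sample titles. The authors used Affymetrix's Expression Console for background correction, normalization and the step to 1 value per probe set. RMA is the method named in the submitters' notes. The deposited values are log2 expression values and were used unscaled. Of 28944 probe sets, 21789 carry 1 symbol, 1621 several and 5534 none, and the last 2 kinds were left out. The brightest probe set stood for each of the 999 genes with several. Probe sequences were not used here, so signal shared between related receptor genes was not checked.

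Members and gene lists were chosen with earlier results of these data known. All 9 receptors were named. Ligands and other receptors were named where above background on 1 of 2 arrays and at least 2-fold apart (at most 4 per list and comparison) or as direct ligands, with 3 genes of most similar pattern per receptor and at most 3 markers per cell type. Receptors at least 2-fold apart were counted in 12 comparisons by label and 2 paired crosswise. Methods of the study name adjusted p-values, which 2 single arrays cannot give. Brain and blood were compared by limma 3.58.1 in R 4.3.3, with Benjamini-Hochberg adjustment over all genes, and by exact permutation. Tumor and normal were compared by limma over 4 populations as blocks. The scripts were tested on simulated data. As alternatives, arrays were centred on their medians or normalized by quantiles or cyclic loess, and values raised to background, means of probe sets, the crosswise pairing and fits without single arrays were tried. The other computations ran in Python 3.11.15 (pandas 2.3.3, scipy 1.17.1, numpy 2.4.6). The number of arrays limits the precision.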

Additional observations from a re-analysis of the deposited data

Results flagged for a closer look

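Some receptors differed in opposite directions under the same contrast in 2 settings, with 1 array on each side, so that none of these differences was tested. Cxcr2 was higher on tumor MG than on normal MG by 1.53 on the log2 scale, under background on both, and differed by -2.09 between tumor MP and normal MP.

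Between blood macrophage high and low, Ccr1 differed by 5.17 in tumor-bearing and -3.46 in normal mice, Ccr2 by 1.27 in tumor-bearing and -1.84 in normal mice, Cxcr2 by 7.54 in tumor-bearing and -5.57 in normal mice, and Cxcr4 by 1.14 in tumor-bearing and -1.57 in normal mice. Between tumor-bearing and normal mice, Ccr1 differed by 4.97 for high and -3.66 for low, Ccr2 by 2.03 for high and -1.08 for low, and Cxcr2 by 6.38 for high and -6.73 for low. Ccr1 and Cxcr2 were under background on tumor low and normal high, and Ccr2 on normal high. A difference that takes in such a value is not between measured levels. The differences of Cxcr4, and those of Ccr2 at 1.27 and -1.08, are between values above background. With values raised to background, high against low gave Ccr1 at 1.86 in tumor-bearing and 0.48 in normal mice, no longer opposite, Ccr2 at -0.68 in normal mice, and Cxcr2 at 4.18 in tumor-bearing and -2.53 in normal mice. Tumor-bearing against normal mice then gave Ccr1 at 1.02 for high and -0.36 for low, Ccr2 at 0.87 for high, and Cxcr2 at 3.34 for high and -3.37 for low. The neutrophil and NK markers of the same 4 arrays turned with them, and their part was not tested.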

How the results depend on the processing

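Under the alternatives 558 log2 differences were recomputed. A change of sign was counted only where the deposited values were at least 2-fold apart, so not all of the 558 could count. The 108 recomputed with means of probe sets could not differ, since each receptor had 1 probe set. Of those that could count, 5 changed sign. With values raised to background these were Cxcr2 in tumor MG against normal MG (-0.062), Ccr7 in normal MP against normal MG (-0.35) and Ccr1 in normal blood macrophage high against low (0.48). The crosswise pairing of tumor low with normal high gave Cx3cr1 0.033 and Ccr2 0.76.

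Counts of receptors at least 2-fold apart moved by more than 1.5 times as follows. With values raised to background, tumor MG against normal MG kept 1, tumor Gr1- against the array labelled blood Gr1- 0, normal blood macrophage high against low 3, and tumor against normal low 3. Median centring, quantile and cyclic loess normalization also gave 0 for tumor Gr1- against the array labelled blood Gr1-, and cyclic loess gave 3 for normal high against low. The crosswise pairing gave 1 for tumor high and 2 for tumor low. For brain against blood, limma called 0 receptors as deposited, where 0.0351% of all genes passed, and 2 without the array labelled blood Gr1-, where 2.92% did. Without it and normal blood macrophage high, a choice made after seeing the data, it called 1, where 2.40% did. With values raised to background it called 3 (Cx3cr1, Cxcr2 and Cxcr4), where 2.81% did. There, 48.0% of genes sit at background on all arrays and share 1 pattern by the construction of that setting. The mean of probe sets moved no receptor, since each had 1.

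For tumor against normal with the population as a block, a comparison chosen after seeing the data, limma called 0 receptors and 0% of genes. It called 0 receptors and 0% of genes without the block, and 0 receptors and 0.015% of genes with values raised to background. With blood macrophages paired crosswise it called 1 receptor (Cxcr4) and 1.70% of genes. Leaving out each population in turn gave 0 to 2 receptors, where 0% to 0.742% of genes passed. The 2 were Ccr1 (2.24) and Cxcr2 (1.94) without blood macrophages low, both under background on normal high. With cyclic loess the median log2 difference of all genes was -0.014 in normal MP against normal MG, against -0.22 as deposited, and -0.11 in tumor against normal high, against -0.72. Under quantile normalization the receptors higher and lower were 5 and 0 in normal MP against normal MG, and with median centring 0 and 5 in normal high against low and 5 and 0 in tumor against normal high. Values under background give only a bound.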
